A study of Homo sapiens with 4 samples.

Results

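The transcription factors that drive the epithelial to mesenchymal transition (EMT), together with 3 factors that oppose them, were followed in HCT116 cells, an established human colon cancer line, after exposure to the compound N_12. The members were chosen by symbol: SNAI1, SNAI2, SNAI3, ZEB1, ZEB2, TWIST1 and TWIST2 as the EMT factors, and OVOL1, OVOL2 and GRHL2 as their antagonists. They make up 10 of the 20263 genes in the count table, and 8 of them had enough reads to be among the 14105 genes tested. The study held 4 mRNA libraries, 2 from cells given the solvent DMSO and 2 from cells given N_12, all after 24 h in the same serum-containing medium. N_12 is a derivative of the kinase inhibitor nilotinib, per the series title; the treatment tag of its samples reads HJJ_3_5, and no dose is given in the labels. The 2 libraries of a group are numbered replicates of 1 cell line, and nothing in the labels says that they came from separate cultures, so p-values measure the spread between these libraries, which may be technical.

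EMT is the programme by which epithelial cells loosen their junctions and gain migratory properties. The SNAI and ZEB proteins are zinc finger repressors that bind E-box sequences in the promoters of junction genes such as CDH1, which encodes E-cadherin, and the TWIST proteins are basic helix-loop-helix factors that act on related sequences. OVOL1, OVOL2 and GRHL2 hold the epithelial state, in part by opposing ZEB1, and ZEB1 and microRNAs of the miR-200 family repress each other in many epithelial cells.

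Because this loop is a textbook feature of the ZEB factors, the miR-200 sequences are printed with the places in the ZEB1 transcript that their seeds match; microRNAs themselves were not measured in these libraries. The mature sequences below come from RefSeq (GRCh38.p14), and capitals mark the seed, bases 2 to 8. The first 3 share the seed AAUACUG and the last pair share AACACUG.
hsa-miR-200b-3p: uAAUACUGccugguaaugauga
hsa-miR-200c-3p: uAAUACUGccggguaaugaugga
hsa-miR-429: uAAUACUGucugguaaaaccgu
hsa-miR-200a-3p: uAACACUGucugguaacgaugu
hsa-miR-141-3p: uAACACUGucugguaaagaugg

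The ZEB1 3′ UTR of GENCODE release 29 (2549 bases, GRCh38, chr10:31527265-31529813, plus strand, transcript with the longest 3′ UTR) held 6 matches to the first seed, written CAGTATT, and 3 to the second, written CAGTGTT, on the transcript strand. Of the 2589 other 3′ UTRs of 0.8 to 1.25 times that length, 0 held as many as 9. ZEB2 also held 9 matches, in a 3′ UTR of 5370 bases, as did 1 of 1187 others of like length. SNAI2 and GRHL2 held 1 match each, and the other 6 members held 0. The ZEB1 matches are shown with 14 bases before and 2 after each, capitals marking the seed match, named by the position of its first base after the stop codon.
ZEB1 369: ttgttttatcttatCAGTATTat
ZEB1 463: tgctaaatccgcttCAGTATTtt
ZEB1 892: taagtgccatttctCAGTATTtt
ZEB1 1243: tgatttttacctatCAGTATTat
ZEB1 1313: gtcttcaaacctggCAGTATTaa
ZEB1 1964: cttttcatcattatCAGTATTtt
ZEB1 782: aaaatcatcagaatCAGTGTTtg
ZEB1 1533: gagatttgatttaaCAGTGTTat
ZEB1 1773: ttaacttctataaaCAGTGTTgg

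**Figure D1:**
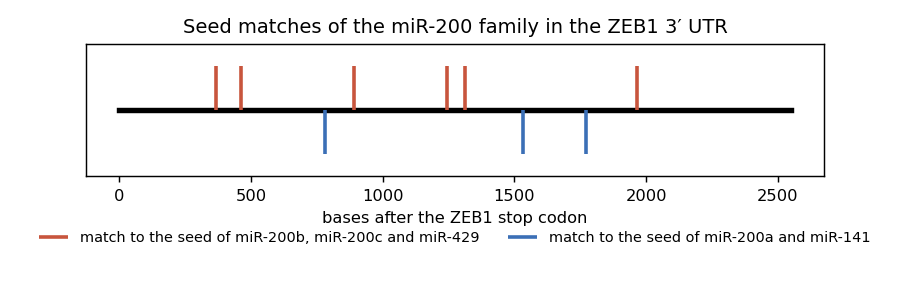
Positions of miR-200 family seed matches along the 2549 bases of the ZEB1 3′ UTR, in bases after the stop codon. Red ticks mark the 6 CAGTATT matches and blue ticks the 3 CAGTGTT matches; 4 of the red ticks lie between bases 892 and 1964. A match is a description of the sequence and not a measured binding site.

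Total counts were 31120459 and 29769568 for DMSO replicates 1 and 2, and 41717938 and 39865327 for N_12 replicates 1 and 2, so the N_12 libraries were the deeper ones. Of 10 markers of colon epithelium, 5 (EPCAM, KRT8, KRT18, KRT19 and CDX2) exceeded 1 CPM (counts-per-million) in every library, while CDX1 was at 0 in all. Summed CPM of these 10 markers was 3999 to 4521 in DMSO and 3302 to 3630 in N_12. Summed levels of the 10 fibroblast markers were 56.6 to 65.6 CPM, with COL1A2, DCN and LUM at 0. Only 1 of these, COL1A1 (55.1 to 64.5 CPM), exceeded 1 CPM in every library. The 10 leukocyte markers summed to 35.4 to 49.4 CPM, with PTPRC, CD3E, CD3D, MS4A1 and TYROBP at 0. The 8 endothelial markers summed to 7.38 to 13.6 CPM, with CLEC14A at 0. In the leukocyte and in the endothelial list, 1 marker each exceeded 1 CPM in every library.

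In these cells SNAI1 was the most abundant member and ZEB2 and TWIST2 had almost no reads. To compare genes with one another, levels were taken as CPM per kb of exon, averaged over the 4 libraries. SNAI1, the zinc finger repressor for which the Snail family is named, stood at 13.98 CPM per kb (range 13.2 to 15.3), higher than 77.6% of the tested genes of known length. SNAI3, a relative of it, followed at 5.83 CPM per kb, then the antagonist OVOL1 at 4.31 and TWIST1 at 3.08. ZEB1 stood at 1.93 CPM per kb, the 27.4th percentile, and the antagonist GRHL2 at 1.22. OVOL2 at 0.639 and SNAI2 (Slug) at 0.506 CPM per kb were the lowest of the tested members.

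The ranges of the 4 libraries did not touch between SNAI1 and SNAI3, between GRHL2 and OVOL2, or between SNAI2 and ZEB2. The ranges of all other neighbours in this order, each taken over the 4 libraries, overlapped: SNAI3 with OVOL1, OVOL1 with TWIST1, TWIST1 with ZEB1, ZEB1 with GRHL2, OVOL2 with SNAI2, and ZEB2 with TWIST2. Library by library, SNAI3 nonetheless exceeded OVOL1, and OVOL1 exceeded TWIST1, in 4 of 4. The order of all 10 was the same when the longest transcript replaced the total exon length. ZEB2 (ENSG00000169554) had 0, 2, 0 and 0 counts in DMSO replicates 1 and 2 and N_12 replicates 1 and 2. TWIST2 (ENSG00000233608) had 0 counts in every library, which allows up to 0.102 CPM in the shallowest library and up to 0.0712 CPM in the deepest (3 counts of the total, counting error only). For ZEB2, the exact Poisson 95% interval was 0.242 to 7.22 counts around 2 and reached up to 3.69 counts for each 0. Neither gene could be tested, and no difference between groups was detectable at this depth.

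**Figure D2:**
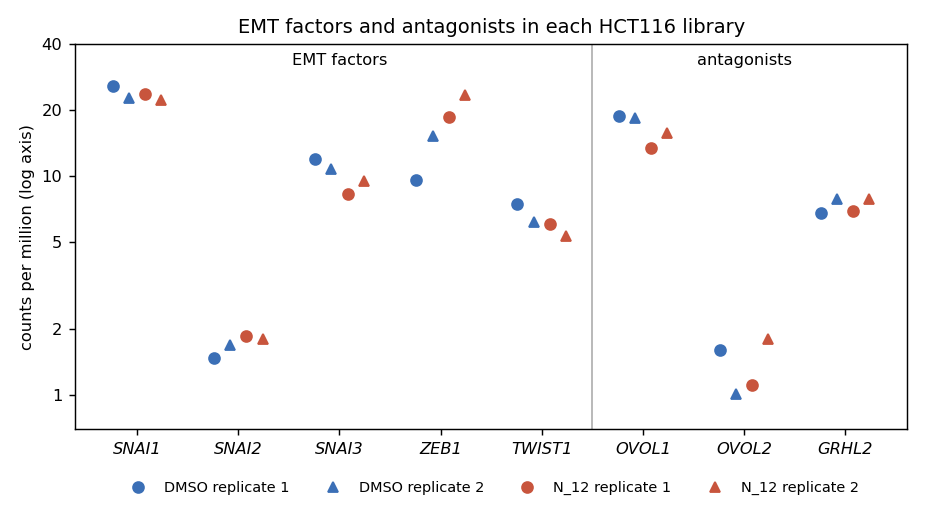
Counts-per-million (CPM) of the 8 tested members in each of the 4 HCT116 libraries, on a log axis; blue marks DMSO, red marks N_12, circles are replicate 1 and triangles replicate 2. ZEB1 runs from 9.64 in DMSO replicate 1 to 23.3 in N_12 replicate 2, whereas SNAI1 stays between 22.3 and 25.7.

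Whether N_12 changed these factors was asked in a fit over all tested genes (edgeR's quasi-likelihood test, Benjamini-Hochberg adjusted over all of them, threshold 0.05, two-sided). Of the 8 tested members, 0 passed, against 2.25% of all tested genes. ZEB1 alone had an unadjusted p under 0.05, against 21.8% of all tested genes. DESeq2, which gave OVOL2 no adjusted p, and limma-voom also called 0 of them. The log2 fold changes of N_12 over DMSO lay above 0 for 4 members and below 0 for 4, with a median of -0.03, beside 0.01 over all tested genes, of which 51.0% lay above 0. The groups did not overlap for 5 of the 8 (ZEB1, SNAI2, SNAI3, TWIST1 and OVOL1), beside 54.7% of all tested genes, and 4 of the 8 had a log2 fold change under 0.25 in size, beside 48.8%. In bulk libraries such as these, a change in the number of cells that express a gene and a change in RNA per cell cannot be told apart.

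ZEB1 (ENSG00000148516), a zinc finger repressor of CDH1, had the largest difference among the members. Its counts were 294 and 446 in DMSO replicates 1 and 2, and 786 and 950 in N_12 replicates 1 and 2. On library-scaled totals these are 9.64 and 15.2 CPM in DMSO and 18.7 and 23.3 CPM in N_12. Both N_12 libraries lay above both DMSO libraries, an order also seen in 27.9% of tested genes, and DMSO replicate 1 lay furthest from the rest. The means were 12.4 ± 3.91 CPM in DMSO and 21.0 ± 3.28 CPM in N_12 (SD, n = 2), 1.69-fold in the fit. The log2 fold change was 0.76 (SE 0.25, 95% interval 0.18 to 1.34), with an unadjusted p of 0.0169 and an adjusted p of 0.143 in edgeR, so it did not pass the threshold; by p ZEB1 ranked 1664 among the 14105 genes. A log2 fold change at or above this was found for 3.36% of tested genes.

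The size of the ZEB1 difference changed with each library left out, and most with the DMSO libraries. Without DMSO replicate 2 the log2 fold change was 1.12 and passed the threshold (adjusted p = 0.0471, edgeR), and without DMSO replicate 1 it was 0.47 (adjusted p = 0.530). Without N_12 replicate 1 the log2 fold change was 0.89, and without N_12 replicate 2 it was 0.58. With 1 library left in a group, that library is taken to vary as the pair of the other group does. ZEB1 transcripts are long and poor in GC (38.5%, longest transcript 6267 bases), and 1404 tested genes had a GC content within 2 points and a length within 2-fold. The median log2 fold change of these was 0.01, and 2.92% lay at or above ZEB1. Their median log2 deviation from the mean of the 4 libraries was -0.05 and 0.06 in DMSO replicates 1 and 2. In N_12 replicates 1 and 2 it was 0.16 and -0.14. A correction for GC and length left the ZEB1 value at 0.78 (unadjusted p = 0.0386 and adjusted p = 0.146, edgeR). The antisense gene ZEB1-AS1 overlaps 4.23% of the ZEB1 exon bases, and since the strand setting of the counting is not given in the sources used here, its reads cannot be told apart. The N_12 libraries were also deeper, as given above, and the part of depth in this difference was not tested.

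The 3 genes whose pattern over the 4 libraries was most like that of ZEB1, among 4153 genes of mean CPM within 2-fold of it, were NAV3, REV3L and LEO1. Their Euclidean distances from ZEB1 in centred log2 CPM were 0.125, 0.128 and 0.162. NAV3, a microtubule-associated neuron navigator, had 11.8 and 16.9 CPM in DMSO and 20.3 and 25.8 CPM in N_12. REV3L, the catalytic subunit of the translesion polymerase zeta, had 13.4 and 21.8 CPM in DMSO and 26.6 and 29.8 CPM in N_12. LEO1, a subunit of the PAF1 elongation complex, had 16.5 and 25.7 CPM in DMSO and 33.3 and 35.5 CPM in N_12. In each of the 3, as in ZEB1, DMSO replicate 1 was the lowest library and N_12 replicate 2 the highest. They were chosen for this likeness, so the shared order is no separate finding. None passed the threshold (adjusted p = 0.143, 0.168 and 0.134 in edgeR).

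The Snail family did not pass the test in either direction. SNAI1 (ENSG00000124216) had 25.7 and 22.6 CPM in DMSO and 23.6 and 22.3 CPM in N_12, from 665 to 996 counts. The groups overlapped, and the log2 fold change was -0.07 (SE 0.16, 95% interval -0.44 to 0.29, adjusted p = 0.827 in edgeR). That interval holds no rise beyond 0.29 and no fall beyond 0.44 on the log2 scale. SNAI2 (ENSG00000019549), the Slug factor of neural crest and of many carcinomas, had 1.48 and 1.70 CPM in DMSO and 1.87 and 1.81 CPM in N_12. Both N_12 libraries were above DMSO, as in 27.9% of tested genes. With 45 to 79 counts the interval was wide (log2 fold change 0.22, SE 0.29, 95% interval -0.44 to 0.88, edgeR adjusted p = 0.70). SNAI3 (ENSG00000185669) had 11.9 and 10.7 CPM in DMSO and 8.26 and 9.47 CPM in N_12. Each N_12 value was under each DMSO value, as in 26.8% of tested genes, and the log2 fold change was -0.36 (SE 0.19, adjusted p = 0.312). Reads of SNAI3-AS1, which overlaps 9.41% of the SNAI3 exon bases on the other strand, cannot be told apart from it.

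TWIST1 (ENSG00000122691), the remaining EMT factor with enough reads, had 7.48 and 6.19 CPM in DMSO and 6.05 and 5.32 CPM in N_12. The groups did not overlap, as in 54.7% of tested genes, though the lower DMSO library and the higher N_12 library were close. Its log2 fold change was -0.26 (SE 0.21, 95% interval -0.74 to 0.22, unadjusted p of 0.239 and adjusted p of 0.493, edgeR). The antisense gene AC003986.2 overlaps 6.94% of the TWIST1 exon bases, and its reads cannot be told apart. Of the 5 tested EMT factors, ZEB1 and SNAI2 lay above 0 and SNAI1, SNAI3 and TWIST1 below 0.

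Among the antagonists, 1 of 3, OVOL1, had groups that did not overlap, beside 54.7% of all tested genes. OVOL1 (ENSG00000172818), a zinc finger factor of epithelial differentiation, had 18.9 and 18.3 CPM in DMSO and 13.5 and 15.6 CPM in N_12, from 539 to 638 counts. The DMSO libraries were close together and both N_12 libraries lay lower, with a log2 fold change of -0.35 (SE 0.17, 95% interval -0.75 to 0.04, unadjusted p of 0.0736 and adjusted p of 0.277, edgeR). The antisense gene AP001266.1 overlaps 27.1% of the OVOL1 exon bases, more than for any other member, and its reads cannot be told apart. OVOL2 (ENSG00000125850), which represses ZEB1 in epithelia, had 1.61 and 1.02 CPM in DMSO and 1.12 and 1.81 CPM in N_12. The groups overlapped, and 30 to 74 counts left the sign unsettled. The OVOL2 log2 fold change was 0.15 (SE 0.39, 95% interval -0.74 to 1.05, adjusted p = 0.853 in edgeR). The protein-coding gene SNX5 overlaps 2.71% of the OVOL2 exon bases on the same strand. How shared reads were counted is not given in the sources used here. GRHL2 (ENSG00000083307), a grainyhead factor that sustains CDH1 expression, had 6.79 and 7.89 CPM in DMSO and 6.95 and 7.87 CPM in N_12. Its groups overlapped almost fully, with a log2 fold change of 0.01 (SE 0.20, 95% interval -0.44 to 0.47, adjusted p = 0.975).

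**Figure D3:**
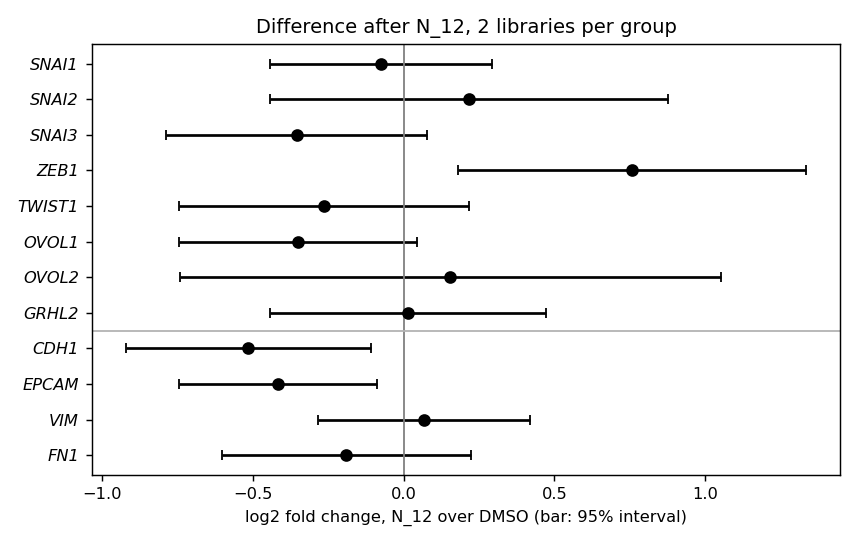
Log2 fold change of N_12 over DMSO with its 95% interval (bars) for the 8 tested members and, under the grey line, for 4 genes that mark the epithelial (CDH1, EPCAM) and mesenchymal (VIM, FN1) states. The interval of ZEB1 runs from 0.18 to 1.34 and those of the other 7 members include 0; no value in the plot passed the threshold after adjustment over all tested genes.

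Because EMT factors and antagonists act against each other, their ratios within each library were also taken, on the log2 scale of CPM per kb. ZEB1 to OVOL1 was -2.14 and -1.44 in DMSO and -0.70 and -0.59 in N_12. OVOL1 therefore exceeded ZEB1 per kb in every library, and by less in both N_12 libraries than in either DMSO library. The mean difference between groups was 1.14, a 2.21-fold shift of the ratio, and ranged from 0.79 to 1.49 when single libraries were left out. ZEB1 to GRHL2 was -0.01 and 0.43 in DMSO and 0.91 and 1.05 in N_12. The groups did not overlap, and the mean difference was 0.77, or 1.71-fold (0.55 to 0.99 with single libraries left out). ZEB1 to OVOL2 was 0.59 and 1.90 in DMSO and 2.07 and 1.69 in N_12, so the groups overlapped.

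SNAI1 to OVOL1 was 1.64 and 1.49 in DMSO and 2.0 and 1.70 in N_12, a mean difference of 0.28 with groups that did not overlap. The ratios of SNAI1 to OVOL2 and to GRHL2 overlapped between groups, with mean differences of -0.22 and -0.09. Of the SNAI2 ratios, those to OVOL1 and GRHL2 were higher in both N_12 libraries, by 0.58 and 0.20, and that to OVOL2 overlapped. These ratios are given as values, were not corrected for GC content, and were not tested. Groups that do not overlap are common with 2 libraries each: they were seen for 54.7% of single tested genes. The ratios to OVOL1 also share its lower N_12 values, and OVOL1 was not called (adjusted p = 0.277, edgeR).

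**Figure D4:**
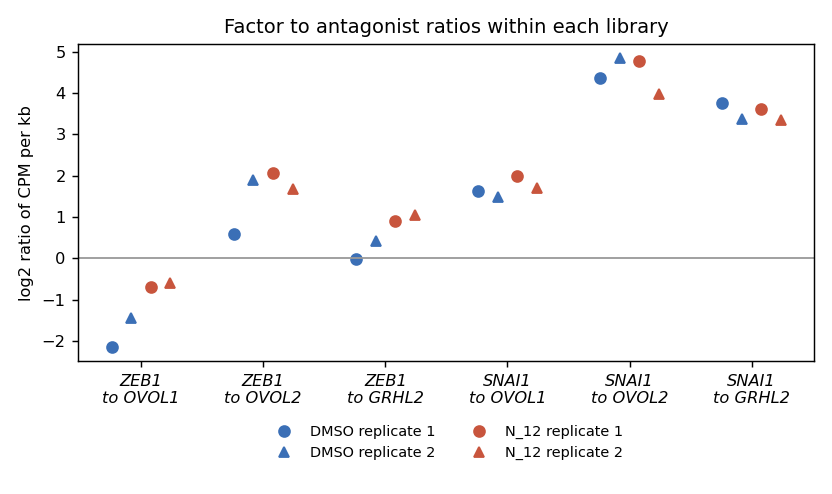
Log2 ratio of ZEB1 or SNAI1 to each antagonist in CPM per kb, 1 point per library (blue DMSO, red N_12, circles replicate 1, triangles replicate 2). Points under the line at 0 are libraries in which the antagonist was the more abundant; ZEB1 to OVOL1 runs from -2.14 in DMSO replicate 1 to -0.59 in N_12 replicate 2 without crossing 0.

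Other transcription factors of the same programme contained 2 called genes of 18 tested (22 listed), with a median log2 fold change of 0.13. Of the 18, 12 lay above 0, beside 51.0% of all tested genes. MSX1, a homeobox factor downstream of BMP signalling, had 59.3 and 59.0 CPM in DMSO and 112 and 116 CPM in N_12, and rose by 0.95 on the log2 scale (SE 0.13, adjusted p = 0.0179, edgeR). SOX4, an HMG-box factor linked to TGF-beta-driven EMT, had 97.6 and 92.2 CPM in DMSO and 47.9 and 41.3 CPM in N_12, and fell by 1.09 (SE 0.15, adjusted p = 0.0174). The pair of called factors thus moved in opposite directions, each with replicates far closer together than the groups. Both are named because they were called, so this closeness is no separate finding. Over all tested genes 0.822% were called higher and 1.43% lower.

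Of 16 tested factors of the epithelial state beyond the members (21 listed), 0 were called higher and 2 lower. The shares over all tested genes were 0.822% and 1.43%. Of the 16, 10 lay below 0 and 6 above, beside 51.0% of all tested genes above 0, and the median was -0.06. ELF3, an Ets factor of epithelial differentiation, had 223 and 191 CPM in DMSO and 86.8 and 101 CPM in N_12, and fell by 1.14 on the log2 scale (SE 0.15, adjusted p = 0.0155, edgeR). With either N_12 library left out, edgeR called 0 genes of the whole table (2855 without replicate 1 and 2763 without replicate 2 had an unadjusted p under 0.05), a loss over all genes that is not particular to those named here. In those fits the log2 fold changes were 0.96 and 0.92 for MSX1, -1.22 and -0.99 for SOX4, and -1.06 and -1.26 for ELF3.

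Of 34 listed epithelial genes known as targets of SNAI or ZEB repression, 33 were matched to the table and all 33 were tested. Of these, 24 lay below 0 and 9 above, beside 51.0% of all tested genes above 0, and the median was -0.14. By unadjusted p under 0.05 in edgeR, 10 were lower and 2 higher, beside 10.8% lower and 11.0% higher over all tested genes. CLDN4, counted below 0 at -0.11, had 458 and 24.3 CPM in DMSO and 70.6 and 376 CPM in N_12. Its 95% interval ran from -8.04 to 7.82, which left its sign unsettled. AP1M2, the medium subunit of the epithelial clathrin adaptor AP-1B, was the single call among the 33, beside 2.25% of all tested genes. It had 38.4 and 35.3 CPM in DMSO and 20.4 and 22.4 CPM in N_12, and fell by 0.79 on the log2 scale (SE 0.16, adjusted p = 0.0495, edgeR). This call lay at the threshold and was lost in 8 of 15 alternatives, among them without DMSO replicate 1 (adjusted p = 0.202) and without DMSO replicate 2 (0.0739). CDH1, encoding E-cadherin, had 85.8 and 75.2 CPM in DMSO and 48.7 and 63.9 CPM in N_12, and EPCAM, an epithelial adhesion molecule, had 276 and 253 CPM in DMSO and 215 and 181 CPM in N_12. Both lay lower in each N_12 library, as in 26.8% of tested genes. Neither was called (log2 fold changes -0.52 and -0.42, adjusted p = 0.151 and 0.152 in edgeR). The summed level of the colon epithelium markers was lower in both N_12 libraries too, but EPCAM, KRT8, KRT18 and KRT19 are in both lists. Most of that sum came from KRT8 and KRT19 (1959 and 1760 of 4521 CPM in DMSO replicate 1). Of the 5 tested markers, 3 lay below 0 and 2 above, CDX2 at 0.62 and KRT18 at 0.01 on the log2 scale. The part of the marker level in the CDH1 and EPCAM values was not tested.

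Promoter sequences from RefSeq (GRCh38.p14, 250 bases before to 50 after the most upstream start) were searched for the E-box bound by SNAI and ZEB factors, CACCTG or its reverse complement CAGGTG, on both strands; both spellings are also cases of the general E-box CANNTG. Of all 27305 promoters, 20.6% held at least 1 CACCTG or CAGGTG, 0.634% held 3 or more and 69.0% held a CANNTG. Of the 33 tested epithelial targets, 19 had a promoter in the table; 10 held at least 1 match and 3 held 3 or more. Those 3 were CRB3, PATJ and AP1M2, of which AP1M2 was the one called, so its promoter is shown, followed by that of ZEB1, the member with the largest difference. ELF3, a called epithelial factor described above, held 1 match. Capitals mark the matches, and a match is no evidence of binding.
AP1M2, chr19:10587263-10587562, minus strand, 3 matches: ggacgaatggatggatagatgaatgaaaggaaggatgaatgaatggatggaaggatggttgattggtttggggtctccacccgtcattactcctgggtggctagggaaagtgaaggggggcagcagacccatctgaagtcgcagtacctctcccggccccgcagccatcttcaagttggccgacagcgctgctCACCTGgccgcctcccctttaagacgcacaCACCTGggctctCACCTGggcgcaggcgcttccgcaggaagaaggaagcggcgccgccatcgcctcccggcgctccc
ZEB1, chr10:31318167-31318466, plus strand, 1 match: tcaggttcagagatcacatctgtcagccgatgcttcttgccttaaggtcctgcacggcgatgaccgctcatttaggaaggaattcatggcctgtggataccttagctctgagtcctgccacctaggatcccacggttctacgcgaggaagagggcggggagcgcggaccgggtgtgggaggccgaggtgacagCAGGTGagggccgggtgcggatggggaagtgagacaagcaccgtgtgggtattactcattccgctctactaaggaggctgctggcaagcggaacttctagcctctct

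Mesenchymal genes raised by EMT factors gave 0 calls among 18 tested of 30 listed in edgeR, beside 2.25% of all tested genes. By unadjusted p under 0.05 in edgeR, 1 was higher and 3 lower, beside 11.0% and 10.8% of all tested genes. Limma-voom called 0 and DESeq2 called 2, and 4 of the 30 were at 0 in all libraries. VIM, the intermediate filament vimentin, had 33.9 and 31.7 CPM in DMSO and 35.5 and 33.2 CPM in N_12, and FN1, fibronectin, had 24.8 and 29.1 CPM in DMSO and 21.0 and 26.2 CPM in N_12. The groups overlapped in both (log2 fold changes 0.07 and -0.19, adjusted p = 0.835 and 0.570). CDH2, encoding N-cadherin, had 0 and 4 counts in DMSO while N_12 gave 2 and 0, too little to test. The smallest p-values belonged to MMP9, a gelatinase (0.990 CPM in DMSO, 0.205 in N_12, adjusted p = 0.0718), S100A4, a calcium-binding protein of motile cells (141 and 71.2 CPM, adjusted p = 0.111), and LOXL2, a lysyl oxidase (151 and 111 CPM, adjusted p = 0.116). In all 3 the N_12 mean was the lower one. MMP9 rested on few reads, 21 and 38 counts in DMSO and 9 and 8 in N_12.

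Corepressors through which SNAI and ZEB proteins act gave 0 calls among 29 tested, beside 2.25% of all tested genes, with a median of 0.04. By unadjusted p under 0.05 in edgeR, 2 were higher and 2 lower, beside 11.0% and 10.8% of all tested genes. Limma-voom called 0 of them and DESeq2 called 3. The smallest p-values were those of DNMT1, the maintenance DNA methyltransferase (159 CPM in DMSO, 235 in N_12, adjusted p = 0.0677), LIMD1, an Ajuba family LIM protein (101 and 72.0 CPM, adjusted p = 0.110), and HDAC3, a histone deacetylase (143 and 105 CPM, adjusted p = 0.117). Kinases, ligases and stabilizers that set the turnover of SNAI, TWIST and ZEB proteins also gave 0 calls among 31 tested. The median of these was 0.08, and 2 were higher and 3 lower by unadjusted p, beside the same shares of all tested genes. Limma-voom called 0 of them and DESeq2 called 3. Their smallest p-values were those of GSK3A, a kinase related to the one that marks SNAI1 for destruction (51.9 and 74.0 CPM, adjusted p = 0.104), OTUB1, a deubiquitinase (38.1 and 56.4 CPM, adjusted p = 0.107), and CTDSP1, a phosphatase of SNAI1 (50.5 and 35.4 CPM, adjusted p = 0.107). Protein levels, which this group of genes controls, were not measured.

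Upstream genes of the TGF-beta, BMP and Notch pathways gave 1 call among 32 tested, beside 2.25% of all tested genes, with 14 above 0, 18 below and a median of -0.04. HES1, a repressor induced by Notch, had 61.8 and 55.3 CPM in DMSO and 29.7 and 22.6 CPM in N_12, and fell by 1.16 on the log2 scale (SE 0.18, adjusted p = 0.0248, edgeR). The lower DMSO library lay well above the higher N_12 library. HES1 was not called by limma-voom (adjusted p = 0.0510). By unadjusted p under 0.05, 3 genes of this list were higher and 5 lower, beside 11.0% and 10.8% of all tested genes.

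**Figure D5:**
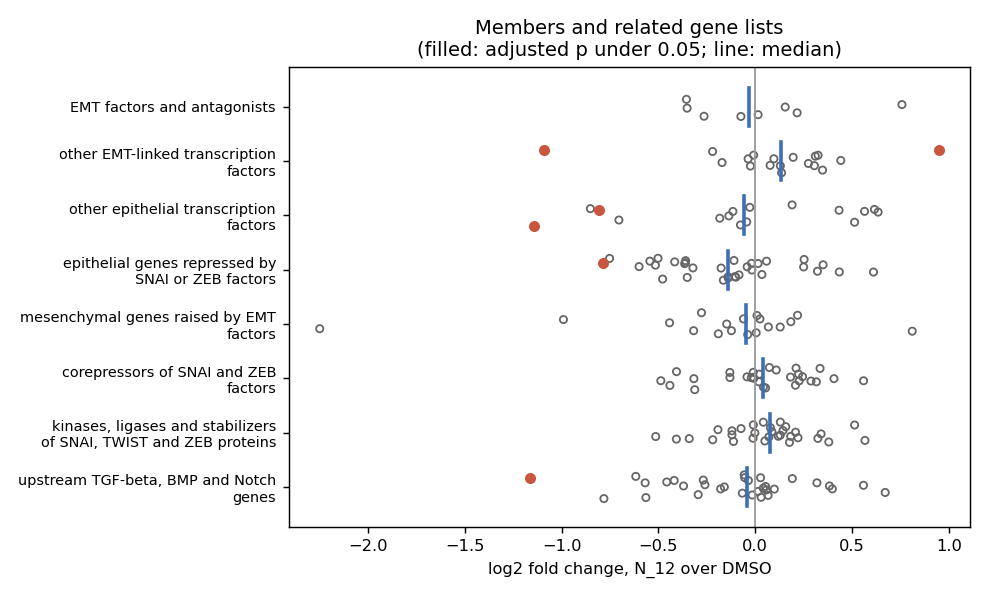
Log2 fold change of N_12 over DMSO for each tested gene, by list, with the members in the top row; filled red points passed the adjusted threshold and blue lines are list medians. The filled points include MSX1 above 0 and SOX4, ELF3, AP1M2 and HES1 below 0, and no filled point lies in the row of the members.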

How the data were processed

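The authors deposited whole-number counts per gene, keyed by human Ensembl identifiers and not normalized. Aligner, counter and strandedness: not given in the sources used here. Builds listed in the submitters' processing notes are of mouse (GRCm38, mm10) whereas the identifiers are human, so printed coordinates come only from RefSeq and GENCODE. Libraries were made from 1.4 ug of RNA with an mRNA kit, per the labels. Symbols were found for 20148 of 20263 identifiers and exon lengths for 20224.

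Counts were fitted in R 4.3.3 with edgeR 4.0.16 (quasi-likelihood, robust, TMM factors 0.980 to 1.02, edgeR's expression filter, no replicate term). The biological coefficient of variation was 0.181. Alternatives used limma 3.58.1, DESeq2 1.42.0, other scalings and filters, and left out each library. The procedure was tested on simulated data. Poisson intervals and floors cover counting error only. Replicate numbers were not used to pair the libraries, as the labels give no pairing beyond shared numbers. Deviations of same-numbered libraries correlated at -0.114 across genes, which does not settle whether they were paired. A planned grouping of promoters by E-box was not run, as promoters covered 79.1% of tested genes, and protein sequences were not used here.

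Members and gene lists were chosen with earlier results of these data known. Genes named were all members, list genes that were called (otherwise the 3 with the smallest p), and the 3 genes most like ZEB1. CDH1, EPCAM, VIM, FN1 and CDH2 were also named, and CLDN4 was added for the spread between its replicates. A further called list gene is not reported here.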

Additional observations from a re-analysis of the deposited data

How the results depend on the processing

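Each of the 8 tested members was recomputed under up to 15 alternatives, giving 119 values; 111 kept their direction and their side of the threshold. ZEB1 lay above 0 in all 15, from 0.47 to 1.12, and passed the threshold in 2: with the replicate number as a block, 0.78 (adjusted p = 0.0255, edgeR), and without DMSO replicate 2. Its adjusted p was 0.0791 by DESeq2 and 0.161 by limma-voom. The sign reversed, with the threshold never passed, for 3 members: SNAI1 ranged from -0.16 to 0.023 with single libraries left out, OVOL2 from -0.24 to 0.52 and GRHL2 from -0.089 to 0.13. SNAI1 turned without DMSO replicate 1, OVOL2 without DMSO replicate 2 (-0.13) and without N_12 replicate 2, and GRHL2 without DMSO replicate 1, without N_12 replicate 2 (-0.083) and with the GC and length correction (-0.027). DESeq2 gave no adjusted p for OVOL2, and the stricter filter removed it.

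Calls over all tested genes were 963 with the replicate block, 131 by limma-voom, 131 without robust dispersions, 1225 by DESeq2, 877 with the GC and length correction and 0 to 451 with single libraries left out, beside 317. Higher genes were 46.2% of calls on total counts alone, 44.7% with the GC and length correction and 50.1% without DMSO replicate 2, beside 36.6%. The block called 1 member, 3 epithelial targets and 2 mesenchymal genes. Because the deviations of same-numbered libraries correlated weakly and negatively, the pairing was also crossed, which called 28 genes in all. The crossed fit called 0 in the other EMT-linked factors, the other epithelial factors, the epithelial targets and the upstream genes. The correction and the crossing were added after the data were seen.

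By list, DESeq2 called 5 epithelial targets, 2 mesenchymal genes, 3 corepressors, 3 kinases, ligases or stabilizers and 4 upstream genes. The GC and length correction called 4, 1, 1 and 2 in the first 4 of these. Limma-voom and the non-robust fit each called 1 other epithelial factor, 0 epithelial targets and 0 upstream genes, and total counts alone called 0 epithelial targets. With single libraries left out, calls ranged from 0 to 1 for the members, the epithelial targets and the mesenchymal genes, from 0 to 2 for the other EMT-linked factors, the other epithelial factors and the upstream genes, and were 0 for the others. List medians changed sign for the other epithelial factors (0.00064) and the mesenchymal genes (0.037) without DMSO replicate 1, for the kinases, ligases and stabilizers without N_12 replicate 1 (-0.022), and for the upstream genes on total counts alone (0.0023). The cause of these shifts was not tested. With 2 libraries a group, differences the size of those of the low-count SNAI2 and OVOL2 were not detectable at this depth.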
